A study of Saccharomyces cerevisiae with 14 samples.

Results

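The spindle and kinetochore genes of budding yeast (Saccharomyces cerevisiae) were followed through the induction of SWI4. Of 38 listed open reading frames, 37 were found among the 6670 in the read count table. They were chosen by reading frame name, with earlier results of these data known: tubulins, kinesin motors, microtubule-associated and midzone proteins, spindle pole body proteins, the Mtw1, Ndc80 and Dam1 complexes of the kinetochore, the centromeric proteins CSE4 and MIF2, chromosome passenger genes, and PDS1 and ESP1. The listed name YFL037C has no row in the table. TUB2, beta-tubulin, is there as YFL037W and is given with the other genes of the pathway. All 37 genes passed the filter on low counts, with a lowest count of 12 reads in any library (MTW1).

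The spindle is the array of microtubules that separates the copied chromosomes, and in yeast it is nucleated by spindle pole bodies embedded in the nuclear envelope. Kinetochores join each centromere to a microtubule: a centromeric nucleosome that holds the histone variant Cse4 recruits Mif2 and the Mtw1 complex, the Ndc80 complex binds the microtubule, and the Dam1 complex encircles it. Budding yeast duplicates its spindle pole body around the time it commits to division, and many of these genes are transcribed periodically, some in late G1 and others in S phase under the forkhead activator Hcm1.

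The series asked how transcripts respond when SWI4, the DNA-binding subunit of the late G1 transcription factor SBF, is induced. Polyadenylated RNA was sequenced in 14 libraries that form 7 groups of 2. Untreated cells were taken at 0 h, and the other groups received ethanol alone or 5 nM beta-estradiol dissolved in ethanol for 1, 2 or 4 h. All groups carried the genotype Z3EVpr-SWI4, in which SWI4 stands behind a promoter that a synthetic, estradiol-dependent activator switches on, and grew in synthetic complete medium with 2% glucose. No group lacked the construct, so effects of SWI4 and other effects of estradiol cannot be told apart. The protocol text names an induction of 1 h only, whereas the labels of the single samples give 1, 2 and 4 h, which formed the groups. Nothing says whether the 2 replicates of a group were separate cultures, so p-values measure the spread between these libraries, which may be technical.

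Libraries held 3469868 to 17314913 counts, and the 37 genes took 0.148% to 0.256% of them, or 5459 to 32645 reads. Levels below are CPM, counts scaled to a common library size with TMM factors, and differences are log2 fold changes with a standard error (SE) from edgeR's quasi-likelihood test. A gene was called when its Benjamini-Hochberg adjusted p, over all genes tested, was under 0.05. SWI4 itself stood at 12.1 to 23.0 CPM in the 8 untreated and ethanol libraries and at 668 to 1731 CPM in the 6 estradiol libraries. Its average effect was 6.15 on the log2 scale (SE 0.30, adjusted p = 1.82e-07). In bulk RNA, a change in the share of cells at a stage of the cycle and a change in RNA per cell cannot be told apart.

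The promoters of the 3 genes called in the average comparison, SPC42, CIK1 and KIP3, are printed with that of CSE4, the gene with the next smallest p whose promoter holds a site of SBF type. Each run covers 250 bases before to 50 bases after the annotated start, 5′ to 3′ on the gene's strand, from RefSeq's R64 assembly, matched by systematic name. No source used here names the build behind the counts, so no coordinates are given. Capitals mark matches, on either strand, to the SBF element SCB (CGCGAAA), the MBF element MCB (ACGCGT) and a forkhead core (TAAACA).
SPC42: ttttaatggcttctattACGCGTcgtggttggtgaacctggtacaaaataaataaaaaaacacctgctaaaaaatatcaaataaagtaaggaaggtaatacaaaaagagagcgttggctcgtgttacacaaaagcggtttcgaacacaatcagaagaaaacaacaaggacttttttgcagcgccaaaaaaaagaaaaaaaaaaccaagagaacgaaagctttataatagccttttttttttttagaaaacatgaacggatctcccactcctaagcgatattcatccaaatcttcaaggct
CIK1: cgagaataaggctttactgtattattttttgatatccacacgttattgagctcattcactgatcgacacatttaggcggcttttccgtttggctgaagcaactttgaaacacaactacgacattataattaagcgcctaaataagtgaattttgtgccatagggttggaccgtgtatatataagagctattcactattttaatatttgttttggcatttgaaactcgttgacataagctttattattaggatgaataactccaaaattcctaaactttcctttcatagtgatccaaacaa
KIP3: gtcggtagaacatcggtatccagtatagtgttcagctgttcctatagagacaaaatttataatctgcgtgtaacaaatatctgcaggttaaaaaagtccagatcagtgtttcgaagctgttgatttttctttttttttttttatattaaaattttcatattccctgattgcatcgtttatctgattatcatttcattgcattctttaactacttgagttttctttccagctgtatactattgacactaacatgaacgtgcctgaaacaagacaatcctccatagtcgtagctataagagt
CSE4: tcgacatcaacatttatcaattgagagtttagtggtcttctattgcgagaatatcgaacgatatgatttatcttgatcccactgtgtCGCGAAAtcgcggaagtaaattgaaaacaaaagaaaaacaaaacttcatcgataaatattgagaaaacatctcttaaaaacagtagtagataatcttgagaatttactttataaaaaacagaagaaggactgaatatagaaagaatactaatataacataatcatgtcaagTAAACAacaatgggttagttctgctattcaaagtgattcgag
SPC42 had an MCB that begins 233 bases before the start, and CSE4 had an SCB 163 bases before it and a forkhead core just inside the coding sequence. CIK1 and KIP3 had none of the 3 words in this window.

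Across the 37 promoters, 8 held an SCB (21.6%) and 8 others held an MCB (21.6%), so 16 (43.2%) held one of these words. Of all 5978 promoters of genes in the table, 3.61% held an SCB, 3.08% held an MCB and 6.44% held either. The forkhead core was in 23 of the 37 (62.2%) against 28.2% of all promoters. Among 48 other spindle and kinetochore genes, 25.0% held an SCB, 6.25% an MCB, 31.25% either and 45.8% the forkhead core. SCBs lay in CIN8, TUB1, SLK19, SPC24, DAD1, SPC34, CSE4 and SLI15, and MCBs in SPC42, TUB4, SPC110, BIM1, MTW1, MIF2, IPL1 and PDS1. The 16 genes with an SCB or MCB had a median average effect of 0.27 on the log2 scale, with 1 call, and the 21 without had 0.36, with 2 calls. A match of letters is a description and not a binding site, and the 2 words share the letters CGCG.

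In untreated cells, per kilobase of coding length, the alpha-tubulin genes were the most abundant, with TUB1 at 216 ± 22.5 CPM per kb and TUB3 at 206 ± 26.9 (SD, n = 2), which do not differ beyond their spread. BIM1, which encodes a protein of growing microtubule plus ends, followed at 62.2 ± 15.8 CPM per kb and TUB4, gamma-tubulin, at 55.8 ± 8.89. DAD1, a small Dam1 complex subunit, stood at 49.7 ± 1.63 CPM per kb. SPC42 was 17th of the 37 at 20.9 ± 3.03 CPM per kb, and CIK1 and KIP3 lay side by side at 13.5 ± 1.45 and 13.3 ± 0.423. The lowest levels were those of KIP1, a kinesin motor, at 6.30 ± 2.64 CPM per kb and IPL1, the Aurora kinase, at 6.12 ± 1.30. TUB1 and TUB3 have coding sequences that are 81.2% identical, and no 50-base stretch of any of the 37 coding sequences recurs in the R64 genome.

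**Figure D1:**
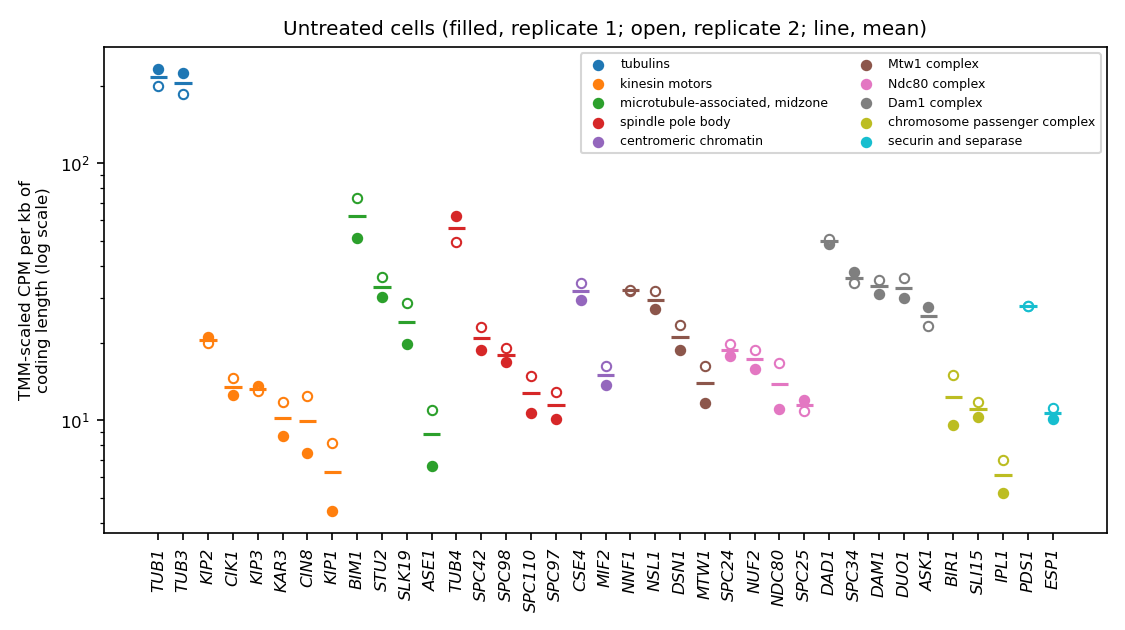
TMM-scaled CPM per kb of coding length, on a log scale, of the 37 genes in the 2 untreated libraries (filled, replicate 1; open, replicate 2; line, mean), coloured by role. The alpha-tubulins TUB1 and TUB3 lie at 216 and 206 CPM per kb, and IPL1 is lowest at 6.12.

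The question at the centre of the series is what estradiol changed relative to ethanol. Averaged over the times, 3 of the 37 genes rose and 0 fell: SPC42, which encodes the core layer of the spindle pole body, CIK1, which encodes the partner of the motor Kar3, and KIP3, which encodes a kinesin that shortens microtubules. Over all 6320 genes in that fit, 3.29% rose and 2.93% fell. The fold changes were 2.13 for SPC42, 1.53 for CIK1 and 1.31 for KIP3. The median average effect of the 37 was 0.31 on the log2 scale against 0.018 over all genes, and 34 of the 37 (91.9%) had a positive value against 53.3% of all genes. An unadjusted p under 0.05 was reached by 13 of the 37 and by 987 of all genes. DESeq2 called 7 of the 37, all higher, adding STU2, CSE4, NSL1 and DAM1, and called 282 of all genes higher and 269 lower. With library totals as the scale edgeR called SPC42 alone of the 37, and 137 of all genes higher and 131 lower.

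**Figure D2:**
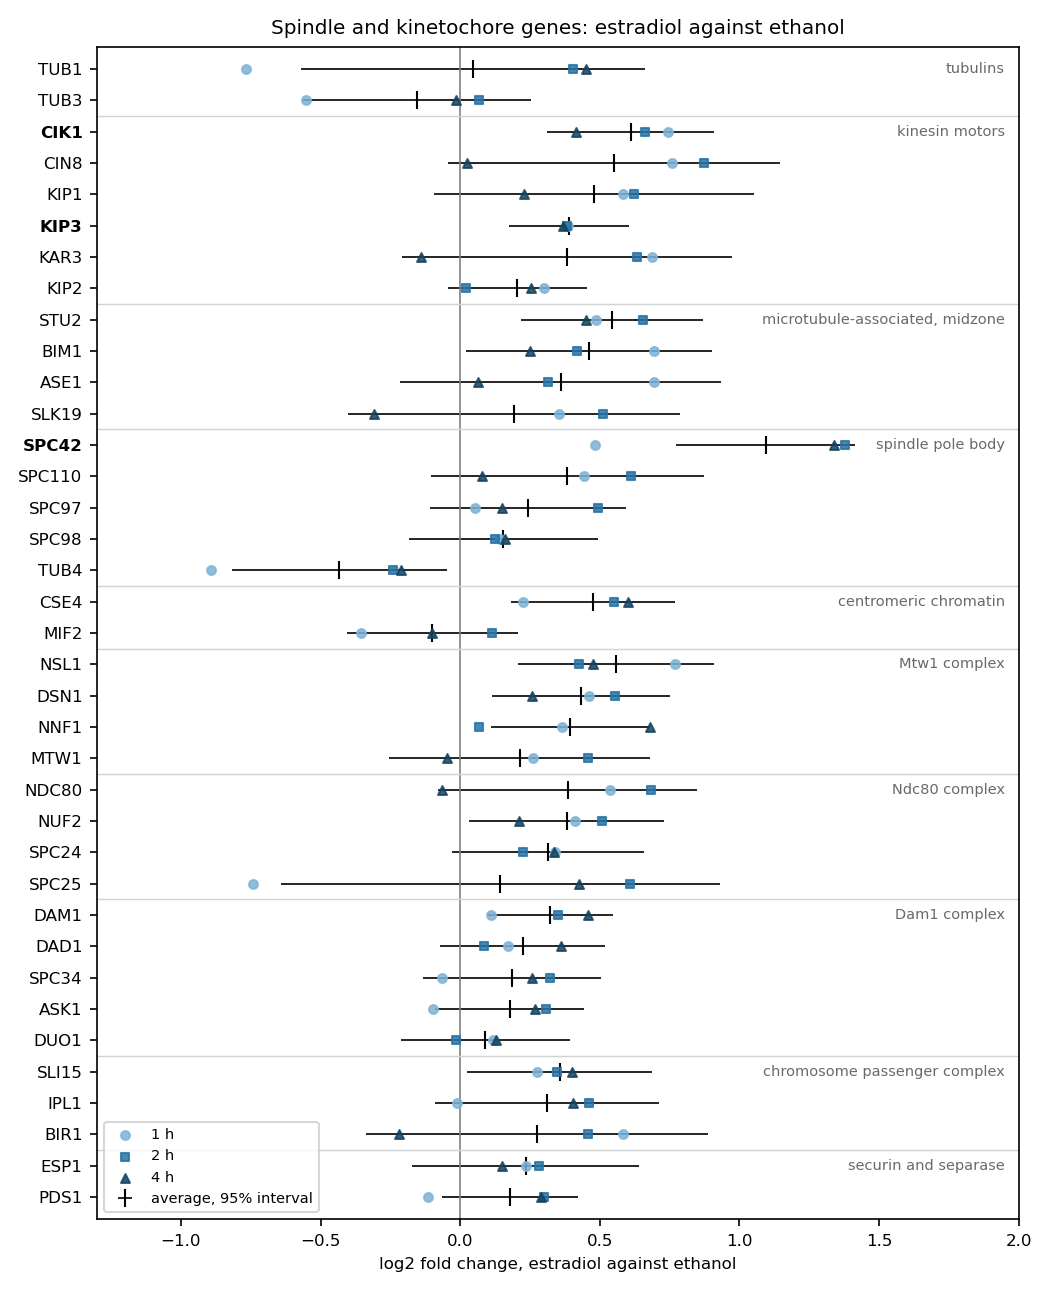
Log2 fold change of estradiol against ethanol for the 37 genes, ordered by role; symbols give 1, 2 and 4 h, and the black mark with its bar gives the average with its 95% interval. Names in bold mark the 3 called genes, of which SPC42 lies farthest right with an average of 1.09.

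Time by time the calls were fewer. At 1 h DESeq2 called none of the 37, against 60 of all genes higher and 97 lower. None was called by edgeR either, with 0.473% of all 6337 genes called higher and 0.489% lower. An unadjusted p under 0.05 was reached by 4 of the 37, a count given here without its share over all genes. At 2 h, SPC42 alone was called, higher, against 0.899% of all genes higher and 0.363% lower. At 4 h, SPC42 alone was again called higher, against 1.18% of all genes higher and 0.694% lower. The median effect of the 37 was 0.30 at 1 h, 0.42 at 2 h and 0.25 at 4 h on the log2 scale, against 0.0060, 0.024 and -0.0081 over all genes. These medians moved with single libraries: without replicate 1 of estradiol they were 0.080 at 1 h, 0.070 at 2 h and 0.044 at 4 h, and over all libraries left out in turn from the groups compared they reached 0.57, 0.68 and 0.36 (without replicate 2 of ethanol at 1 h, replicate 2 of estradiol at 2 h and replicate 1 of ethanol at 4 h). In edgeR, the test of a change of the effect with time called none of the 37 and 0% of all genes. There, 1 of the 37 and 72 of all genes had an unadjusted p under 0.05.

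Both estradiol libraries lay above both ethanol libraries at all 3 times for 6 of the 37 genes (16.2%), against 3.47% of all genes. These were KIP3, CIK1, SPC42, STU2, DSN1 and DAM1. None of the 37 lay below at all 3 times, against 4.2% of all genes.

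Among the spindle pole body genes, SPC42 (YKL042W) had the highest effect. In replicates 1 and 2 it stood at 20.5 and 25.2 CPM in untreated cells. In the ethanol groups the pairs were 22.3 and 23.8 CPM at 1 h, 19.7 and 22.2 at 2 h, and 22.8 and 23.2 at 4 h. In the estradiol groups they were 35.1 and 29.4 CPM at 1 h, 57.9 and 51.1 at 2 h, and 61.6 and 54.7 at 4 h. The estradiol libraries all lay above the 8 others, and the 1 h pair lay between those and the later pairs. By edgeR's quasi-likelihood test the effect was 0.48 at 1 h (SE 0.19, adjusted p = 0.419). It was 1.38 at 2 h (SE 0.19, adjusted p = 0.00239), a 2.60-fold difference with a 95% interval of 1.96 to 3.45. At 4 h it was 1.34 (SE 0.18, adjusted p = 0.00168), a 2.53-fold difference with an interval of 1.93 to 3.31. The average was 1.09 (SE 0.15, adjusted p = 0.000549), and its call held in every setting tried. The change with time had an unadjusted p of 0.00825 and an adjusted p of 0.999. The 2 h call ended with library totals as the scale (adjusted p = 0.273), with only the 4 libraries compared in the fit (0.0714) and without replicate 1 of ethanol at 2 h (0.0611), and the 4 h call ended with library totals (0.230).

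The other spindle pole body genes were not called. TUB4 (YLR212C), the gamma-tubulin of the complex that nucleates microtubules, had the lowest average effect of the 37, -0.43 (SE 0.18, adjusted p = 0.240). It stood at 88.3 and 70.5 CPM in untreated cells and, at 1, 2 and 4 h, at 126 and 79.7, 70.7 and 88.2, and 82.1 and 98.2 CPM with ethanol. With estradiol the pairs were 48.2 and 62.2, 50.6 and 84.3, and 69.3 and 86.4 CPM, so the treatments were apart at 1 h and overlapped from 2 h on. SPC97 (YHR172W) and SPC98 (YNL126W), which encode the partners of gamma-tubulin, had average effects of 0.24 and 0.15, and SPC110 (YDR356W), which anchors that complex to the inner face of the pole body, had 0.38 (SE 0.22). The 5 genes of this role thus ran from -0.43 to 1.09 with a median of 0.24.

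All 6 kinesin genes had positive average effects, with a median of 0.44, and 2 of them were called. CIK1 (YMR198W) stood at 22.3 and 26.0 CPM in untreated cells, and in the ethanol groups at 18.9 and 23.4 CPM at 1 h, 23.5 and 21.99 at 2 h, and 26.2 and 20.3 at 4 h. With estradiol it stood at 38.0 and 33.4 CPM at 1 h, 43.2 and 28.5 at 2 h, and 34.4 and 27.5 at 4 h. All 6 estradiol libraries lay above all ethanol libraries. Its average effect was 0.61 (SE 0.14, adjusted p = 0.0214 by edgeR), with effects of 0.74, 0.66 and 0.41 at 1, 2 and 4 h, none of them called (adjusted p = 0.291, 0.478 and 0.844). The call ended with library totals (adjusted p = 0.324) and when any 1 of 5 libraries was left out (adjusted p = 0.0505 and 0.0663 for replicates 1 and 2 of ethanol at 2 h, 0.0650 for replicate 2 of ethanol at 4 h, and 0.0527 and 0.0632 for replicate 1 of estradiol at 2 h and at 4 h). In R64, the next gene downstream on the same strand is the G1 cyclin gene CLN1, which rose by 1.92 (adjusted p = 1.17e-05). Its part in the CIK1 count was not tested.

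KIP3 (YGL216W) stood at 32.8 and 31.4 CPM in untreated cells. Ethanol libraries lay lower, at 24.9 and 25.7 CPM at 1 h, 29.0 and 26.8 at 2 h and 24.9 and 25.1 at 4 h. Estradiol libraries stood at 37.9 and 28.3 CPM at 1 h, 37.6 and 34.98 at 2 h and 33.3 and 31.3 at 4 h. The estradiol level lay near the untreated one, with differences from it of 0.05, 0.18 and 0.01, and the ethanol level below it, with -0.34, -0.20 and -0.36, none of these called. The average effect against ethanol was 0.39 (SE 0.10, adjusted p = 0.0361 by edgeR). This call ended with library totals (adjusted p = 0.492), when the effects at the 3 times were averaged from the model of all 7 groups (0.0535) and when any 1 of 9 of the 12 treated libraries was left out (0.0663 to 0.0987). The exceptions were ethanol 1 h replicate 1 and replicate 2 of estradiol at 1 h and 2 h.

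The remaining kinesin genes were not called. CIN8 (YEL061C), a motor that pushes spindle poles apart, had an average effect of 0.55 (SE 0.27, adjusted p = 0.361). Its levels in estradiol replicates 1 and 2 were 51.6 and 28.8 CPM at 1 h, 65.0 and 25.7 at 2 h, and 30.7 and 19.8 at 4 h, against 17.0 to 30.8 CPM in the ethanol libraries. KIP1 (YBL063W), which shares functions with CIN8, had 0.48 (SE 0.26), KAR3 (YPR141C) 0.38 (SE 0.27) and KIP2 (YPL155C) 0.20 (SE 0.11). KAR3 had the widest range of the 37, with its highest library 5.43 times its lowest, from 7.56 CPM in ethanol 1 h replicate 1 to 41.1 CPM in estradiol 2 h replicate 1. The median of the 6 was 0.63 at 1 h, 0.63 at 2 h and 0.24 at 4 h.

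**Figure D3:**
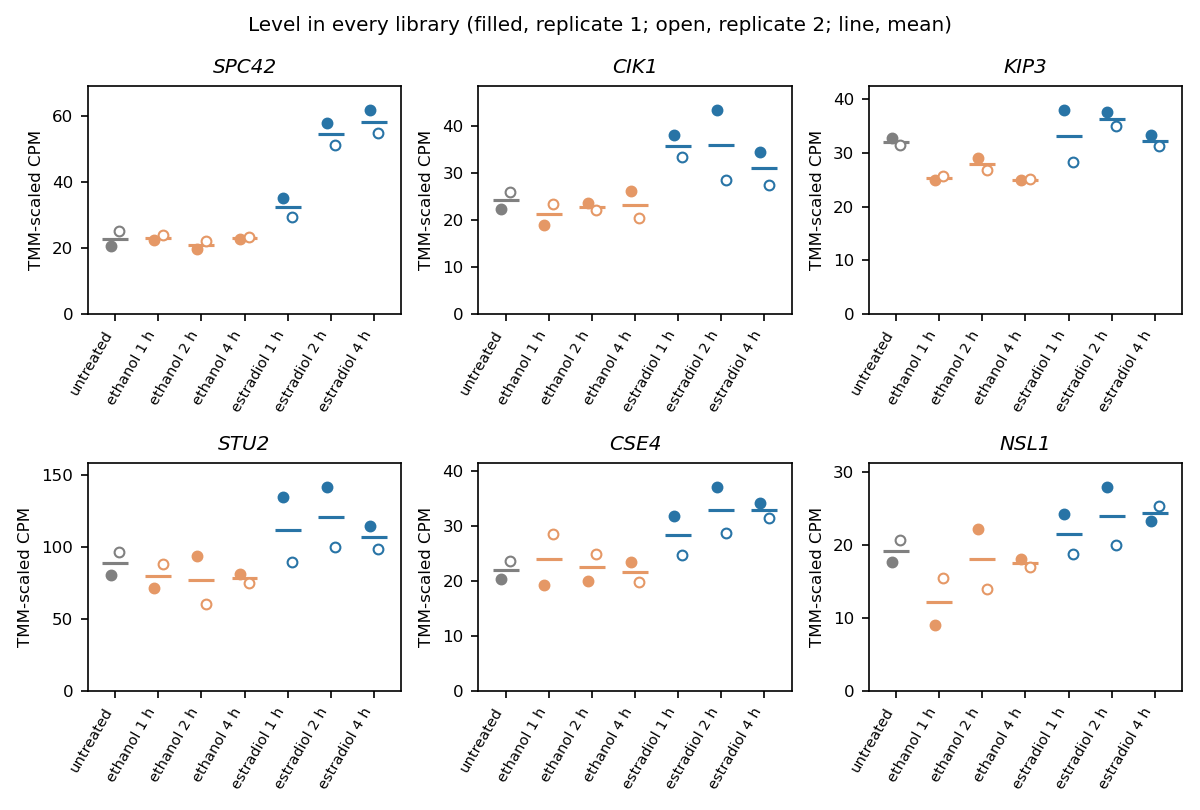
TMM-scaled CPM in every library (filled, replicate 1; open, replicate 2; line, mean) of the 6 genes with the smallest p in the average comparison. SPC42 stands at 19.7 to 25.2 CPM in the untreated and ethanol libraries and rises to 61.6 CPM at 4 h of estradiol, while the estradiol levels of KIP3 lie near its untreated 31.4 and 32.8 CPM.

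The microtubule-associated and midzone genes had a median average effect of 0.41, with none called by edgeR. STU2 (YLR045C), which encodes a microtubule polymerase, came nearest, with 0.54 (SE 0.15, adjusted p = 0.0535). It stood at 80.4 and 96.4 CPM in untreated cells. Under ethanol the pairs were 71.1 and 88.1 CPM at 1 h, 93.4 and 60.1 at 2 h, and 80.7 and 75.1 at 4 h, and under estradiol 134 and 89.2, 141 and 99.4, and 115 and 98.4 CPM. The 2 treatments did not overlap at any time. BIM1 (YER016W) had 0.46 (SE 0.20, adjusted p = 0.289), ASE1 (YOR058C), a bundler of midzone microtubules, 0.36 (SE 0.26) and SLK19 (YOR195W) 0.19 (SE 0.27).

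No alpha-tubulin gene was called. TUB1 (YML085C) and TUB3 (YML124C), the major and minor alpha-tubulin genes, had average effects of 0.05 (SE 0.28) and -0.15 (SE 0.19). TUB1 ran from 242 CPM (estradiol 1 h replicate 1) to 667 CPM (ethanol 1 h replicate 1), and its 2 ethanol libraries at 1 h stood at 667 and 310 CPM. At 1 h the effects were -0.77 and -0.55, at 2 h 0.41 and 0.07, and at 4 h 0.45 and -0.01, none of them called.

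At the centromere, CSE4 (YKL049C), the histone H3 variant of the centromeric nucleosome, had an average effect of 0.48 (SE 0.14, adjusted p = 0.0617). It stood at 20.2 and 23.5 CPM in untreated cells, and with ethanol at 19.3 and 28.5 CPM at 1 h, 19.9 and 24.9 at 2 h, and 23.4 and 19.8 at 4 h. With estradiol its levels were 31.8 and 24.7 CPM at 1 h, 37.0 and 28.6 at 2 h, and 34.2 and 31.4 at 4 h, so that the treatments overlapped at 1 h and not later. MIF2 (YKL089W), which binds that nucleosome, had -0.10 (SE 0.14).

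All 4 genes of the Mtw1 complex, the hub of the kinetochore, had positive average effects from 0.21 to 0.56, and none was called. NSL1 (YPL233W) had 0.56 (SE 0.16, adjusted p = 0.0656). It stood at 17.7 and 20.6 CPM in untreated cells, at 9.07 and 15.4, 22.2 and 13.96, and 18.1 and 16.9 CPM after 1, 2 and 4 h with ethanol, and at 24.2 and 18.7, 28.0 and 20.01, and 23.3 and 25.4 CPM with estradiol. The treatments overlapped at 2 h only. DSN1 (YIR010W) had 0.43 (SE 0.15, adjusted p = 0.131). It stood at 32.4 and 40.7 CPM in untreated cells, at 27.6 and 27.5, 33.1 and 25.8, and 30.5 and 27.3 CPM with ethanol at the 3 times, and at 47.4 and 28.3, 49.9 and 36.1, and 37.1 and 32.1 CPM with estradiol. Its treatments were apart at each time, with mean estradiol levels of 37.9 CPM at 1 h and 34.6 CPM at 4 h near the untreated 36.6 CPM. NNF1 (YJR112W) had 0.39 (SE 0.13, adjusted p = 0.119). It stood at 19.3 and 19.5 CPM in untreated cells, at 17.8 and 16.8, 26.8 and 19.3, and 19.0 and 16.1 CPM with ethanol, and at 21.8 and 22.6, 26.3 and 21.6, and 26.0 and 30.2 CPM with estradiol. These overlapped at 2 h and were apart at 1 and 4 h. MTW1 (YAL034W-A) had 0.21 (SE 0.22).

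The Ndc80 complex, which grips the microtubule, had average effects of 0.39 for NDC80 (YIL144W), 0.38 for NUF2 (YOL069W), 0.31 for SPC24 (YMR117C) and 0.14 for SPC25 (YER018C), none called. NUF2, with an SE of 0.16 and an adjusted p of 0.255, stood at 21.4 and 25.4 CPM in untreated cells, at 18.1 and 26.9, 19.2 and 19.1, and 22.3 and 17.98 CPM with ethanol, and at 34.4 and 26.4, 34.2 and 20.01, and 26.2 and 20.5 CPM with estradiol at 1, 2 and 4 h. Its treatments were apart at 2 h only. SPC25 ranged widely, with its highest library 5.03 times its lowest. It stood at 8.01 and 7.25 CPM in untreated cells, at 9.09 to 25.7 CPM with ethanol and at 9.40 to 36.4 CPM with estradiol, so all 12 treated libraries lay above both untreated ones. Against untreated cells its differences were 1.28, 0.98 and 1.39 with ethanol and 0.54, 1.59 and 1.81 with estradiol at 1, 2 and 4 h, none of them called by edgeR (adjusted p = 0.0640 at 4 h of estradiol).

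The 5 Dam1 complex genes all had small positive average effects, from 0.09 for DUO1 (YGL061C) to 0.32 for DAM1 (YGR113W), with a median of 0.19. DAM1 had an SE of 0.10 and an adjusted p of 0.105. It stood at 32.0 and 36.4 CPM in untreated cells and at 31.0 and 34.7, 34.3 and 31.0, and 34.7 and 32.1 CPM with ethanol at 1, 2 and 4 h. Under estradiol it stood at 35.5 and 35.7 CPM at 1 h, 47.4 and 35.6 at 2 h, and 47.2 and 44.7 at 4 h. Its ethanol and estradiol libraries were thus apart at each time. DAD1 (YDR016C) had 0.22, SPC34 (YKR037C) 0.19 and ASK1 (YKL052C) 0.18.

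The passenger genes IPL1 (YPL209C), SLI15 (YBR156C) and BIR1 (YJR089W), whose products correct wrong attachments, had average effects of 0.31, 0.36 and 0.28, none called. SLI15, the activator of Ipl1 (SE 0.15, adjusted p = 0.272), stood at 21.7 and 24.6 CPM in untreated cells, at 17.0 and 21.4, 21.2 and 22.8, and 23.9 and 18.5 CPM with ethanol, and at 28.9 and 18.01, 31.8 and 24.1, and 33.0 and 23.0 CPM with estradiol. Its treatments were apart at 2 h only. PDS1 (YDR113C), securin, and ESP1 (YGR098C), separase, which it restrains, had 0.18 and 0.23. At 1 h PDS1 stood at 20.8 and 28.1 CPM with ethanol and 24.8 and 20.8 CPM with estradiol. It stood at 37.3 to 41.9 CPM at 2 and 4 h of estradiol, against 30.0 to 33.8 CPM in the ethanol libraries of those 2 later times.

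Against untreated cells, ethanol moved no gene of the 37 past the threshold. DESeq2 called none at 1, 2 or 4 h of ethanol, with 20, 37 and 302 of all genes higher and 2, 4 and 184 lower. None was called by edgeR either, where 0%, 0.0473% and 1.74% of all genes were called. In edgeR, 0, 0 and 1 of the 37 had an unadjusted p under 0.05. The medians of the 37 were -0.20, -0.12 and -0.13, against 0.0015, -0.012 and -0.020 over all genes. Over the other settings tried they ran from -0.42 to -0.0025 at 1 h, -0.19 to 0.019 at 2 h and -0.26 to 0.031 at 4 h. With estradiol, edgeR called none at 1 h (1.53% of all genes), with 3 of the 37 at an unadjusted p under 0.05. It called SPC42 alone at 2 h (3.47% of all genes) and 4 h (10.7% of all genes). DESeq2 called none of the 37 at 1 h, against 131 of all genes higher and 96 lower. The unadjusted counts for ethanol and estradiol are given here without their share over all genes. SPC42 was 1.25 higher at 2 h (adjusted p = 0.00175, 2.39-fold) and 1.35 higher at 4 h (adjusted p = 0.000624, 2.55-fold), while its ethanol differences were 0.02, -0.12 and 0.01. Both calls ended with library totals as the scale, and the 2 h call also ended with only the libraries compared in the fit. The medians of the 37 under estradiol were 0.05, 0.28 and 0.06, against 0.0060, 0.016 and -0.020 over all genes. Over the other settings tried they ran from -0.085 to 0.24 at 1 h, 0.066 to 0.46 at 2 h and -0.078 to 0.22 at 4 h. All 6 comparisons share the untreated libraries.

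A part of the spread between replicates followed coding length. In replicate 1 minus replicate 2 of estradiol, the Spearman correlation with length over the 37 genes was 0.60 at 1 h, 0.57 at 2 h and 0.66 at 4 h; it was 0.60 at 4 h of ethanol, and -0.45, -0.23 and -0.057 in untreated cells and at 1 and 2 h of ethanol. Over 5794 genes the same correlations were 0.49, 0.33 and 0.33 with estradiol, and 0.25, -0.097, -0.031 and 0.32 in the others. Over the 37 genes, the effect of estradiol against ethanol correlated with length at 0.35, 0.31 and -0.49 at 1, 2 and 4 h. For the average effect the value was 0.16. The genes share libraries, so these values are descriptions. The 15 genes of 2000 bases or more had a median deviation from the mean of all libraries of 0.57 in replicate 1 and -0.11 in replicate 2 at 1 h of estradiol. At 2 h these were 0.64 and -0.11. A trend on coding length was also removed from each library, a setting chosen after the data were seen. The average comparison then called SPC42, CIK1, KIP3 and STU2 of the 37, and 204 of all genes higher and 166 lower. The median of the 37 was 0.32.

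**Figure D4:**
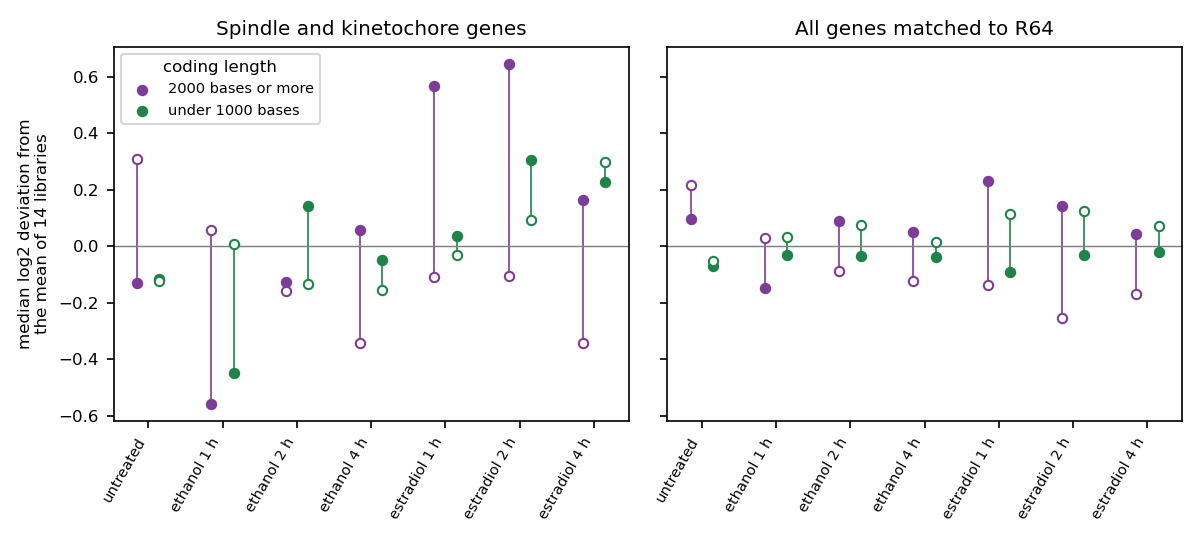
Median log2 deviation from the mean of the 14 libraries for long (2000 bases or more) and short (under 1000 bases) genes among the 37 (left) and among all genes matched to R64 (right); filled points are replicate 1 and open points replicate 2. Long spindle and kinetochore genes stand at 0.64 in estradiol 2 h replicate 1 and at -0.11 in replicate 2.

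Of 48 other spindle and kinetochore genes, 2 rose on average and 0 fell, with a median of 0.18 and 37 positive values. Both encode spindle pole body proteins. BBP1 (YPL255W), which anchors the pole body in the nuclear envelope, rose by 1.04 (SE 0.22, adjusted p = 0.0133, 2.06-fold). It stood at 16.2 and 24.4 CPM in untreated cells, at 8.32 to 23.4 CPM with ethanol and at 27.2 to 54.9 CPM with estradiol, with no overlap. Its call ended with library totals (adjusted p = 0.150) and in no other setting. It lies divergent from CLN2 in R64, a G1 cyclin gene that rose by 1.20 (adjusted p = 0.000229). NUD1 (YOR373W), a scaffold of the outer plaque, rose by 0.45 (SE 0.11, adjusted p = 0.0296, 1.37-fold), with 34.5 to 43.0 CPM under ethanol and 37.6 to 64.9 CPM under estradiol, which overlapped. Its call ended with library totals (adjusted p = 0.141), with the coding-length trend removed (0.109) and in 9 of the 12 fits that left out 1 treated library (0.0538 to 0.0957); the exceptions were replicate 1 of ethanol at 1 h and of estradiol at 1 and 2 h. NUD1 lies divergent from NDD1 in R64, which rose by 0.51 (adjusted p = 0.0412 by edgeR). Medians were 0.34 for the other 5 Dam1 subunits, 0.45 for the 2 Spc105 complex genes, 0.32 for 7 checkpoint genes and 0.11 for 15 inner kinetochore genes. Those of the other spindle pole body genes, among them BBP1 and NUD1, and of the other microtubule genes are not given here. TUB2 stood at -0.01 (adjusted p = 0.993).

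HCM1 (YCR065W), the forkhead activator of spindle genes, rose by 0.79 on average (SE 0.11, adjusted p = 0.000773, 1.73-fold). It stood at 21.8 and 25.0 CPM in untreated cells, at 24.9 to 30.8 CPM with ethanol, and at 35.03 and 40.2, 42.0 and 56.1, and 57.9 and 50.5 CPM at 1, 2 and 4 h of estradiol. The estradiol libraries all lay above the others.

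Genes of other cycle stages moved with the comparison, and their part in the values of the 37 was not tested. Of 9 late G1 genes, 6 rose and 2 fell on average, with a median of 1.59: PCL1 rose by 3.31, and POL1 was at -0.75. Of 12 genes of the CLB2 cluster, 6 rose, with a median of 0.61. Of 8 core histone genes, 3 rose, with a median of 0.38. Of 8 genes expressed at the M/G1 boundary, 5 fell, with a median of -0.72, among them CTS1 at -1.65 and DSE2 at -1.21.

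**Figure D5:**
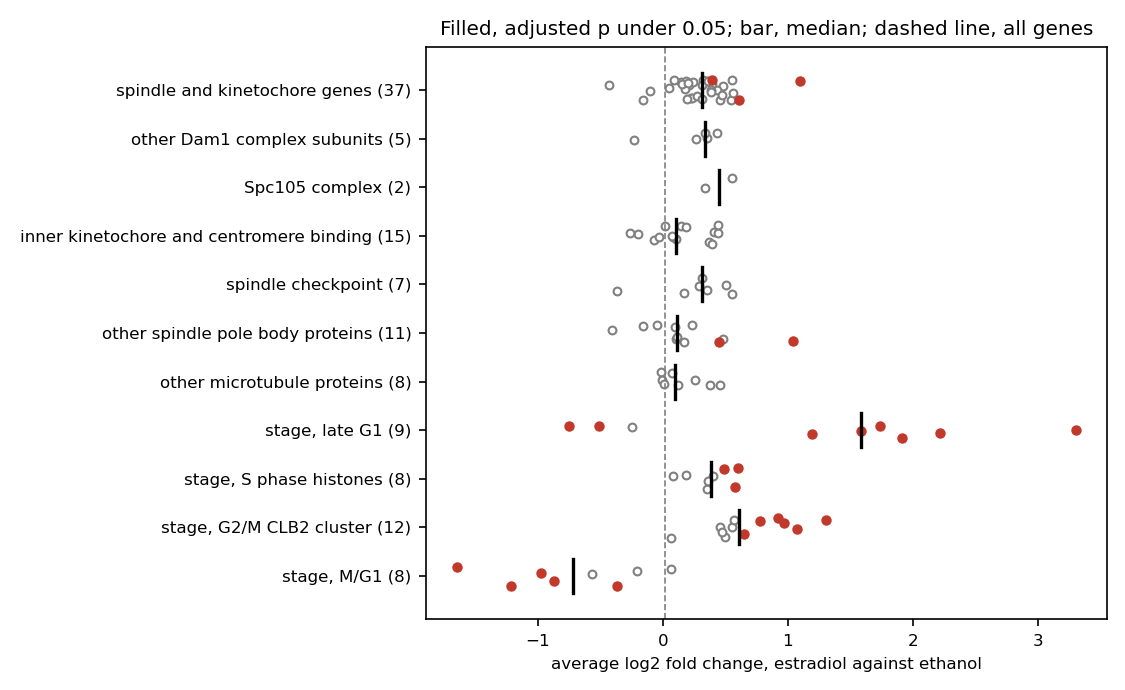
Average log2 fold change of estradiol against ethanol for the 37 genes, the other spindle and kinetochore genes by subgroup, and the genes of 4 cycle stages; filled points are called, bars are medians and the dashed line is the median of all genes. The 37 centre on 0.31, late G1 genes on 1.59 and M/G1 genes on -0.72.

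Neighbours in R64 were called in both directions. Of the 37 genes, 4 (10.8%) had a protein-coding neighbour called higher on average and 5 (13.5%) had one called lower, against 6.50% and 5.12% of 5786 tested genes. Of the 195 genes called higher that have a neighbour in R64, 21.0% had a neighbour called higher. SPC42 is preceded on the same strand by PHD1, which rose by 0.72 (SE 0.15, adjusted p = 0.0109), and CIK1 is followed by CLN1; KIP3 had no called neighbour. CIN8 lies beside PRB1 (1.38) and DUO1 is convergent with PYC1 (1.38). The neighbours called lower were CRR1 beside TUB4 (-0.67), KIP2's neighbour PRM4 (-0.57), ICS2 beside SLI15 (-0.52), SSO1 beside NSL1 (-0.43) and RKM1 beside IPL1 (-0.37). No source used here says whether counting used strand, so reads of overlapping transcripts cannot be told apart.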

How the data were processed

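The authors deposited whole-number read counts, not normalized, for each open reading frame in 14 libraries of polyadenylated RNA. Bowtie2 2.2.5 was used, per the submitters' processing notes. How reads were counted, on which build and with or without strand is not given in the sources. Replicates were compared before use: their log2 CPM correlated at 0.956 to 0.992, and their counts differed beyond sampling noise in every pair.

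The analysis used edgeR 4.0.16 in R 4.3.3: TMM scaling, filterByExpr on the group with a minimum count of 10, which kept 6337 genes, and a robust quasi-likelihood model with 1 coefficient for each of 7 groups (7 residual degrees of freedom, common biological coefficient of variation 0.206). For the average effect, 6320 genes were fitted in the 12 treated libraries with treatment and time as additive factors. The change with time was a joint F test. Each SE was taken from the fold change and its F statistic (log2 size over root F), and 95% intervals use it. P-values are 2-sided, with Benjamini-Hochberg adjustment over all genes. The code was tested on simulated data.

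The members and lists were chosen with earlier results of these data known. Every member is named with its average effect, and levels are given in full for the 12 with the smallest p, with fewer for the others; values for a few more (CIN8, KAR3, TUB1, SPC25 and PDS1) were chosen after they were seen. Of the 6670 identifiers, 5999 matched R64, which gave names, lengths, neighbours and promoters. Settings tried were RLE factors, library totals, no filter, a mean CPM of 10, a replicate block, DESeq2 1.42.0, only the groups compared, the mean of the contrasts, leaving out each library, and removal of a coding-length trend.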

Additional observations from a re-analysis of the deposited data

How the results depend on the processing

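The count of genes called among the 37 stayed at 0 in every setting tried at 1 h of estradiol against ethanol, for the change with time, and for 1 h of ethanol or estradiol against untreated cells. On average it was 3, with 208 of all genes called higher and 185 lower. It was 1 with library totals (137 higher and 131 lower) and 7 with DESeq2 (282 and 269). The count moved with some libraries left out, as did the calls over all genes, and each such fit called SPC42. At 2 h the count of 1 fell to 0 with library totals, where 52 of all genes were called higher and 35 lower. It was also 0 with only the groups compared (31 and 9), and moved when 1 library was left out. At 4 h it was 0 with library totals, which called 65 of all genes higher and 54 lower. It was 2 with DESeq2 (NNF1 and SPC42), which called 116 of all genes higher and 92 lower. Against untreated cells, only the groups compared gave 1 (SPC25) at 2 h and 1 (SPC25) at 4 h of ethanol. Over all genes that setting called 209 higher and 46 lower at 2 h, and 541 higher and 312 lower at 4 h. At 2 h of estradiol the count was 0 with library totals, where 110 of all genes were called higher and 46 lower. With only the groups compared it was also 0 (35 and 6 of all genes), and it moved when 1 library was left out. At 4 h of estradiol library totals gave 2 (SPC25 and TUB1, without SPC42), with 288 of all genes higher and 89 lower. The count was 2 with the replicate block (504 and 312 of all genes), 3 with DESeq2 and 7 with only the groups compared. Those 7 were 6 higher and 1 lower, while the same setting called 1037 of all genes higher and 818 lower. DESeq2 called 659 of all genes higher and 474 lower there.

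Neither the labels nor all correlations pair the replicate numbers, but same-numbered libraries did share deviations. Over 21 pairs of groups, all 10 correlations among ethanol 2 h, ethanol 4 h and estradiol 1, 2 and 4 h were positive (0.28 to 0.73), as was that of untreated cells with ethanol 1 h (0.57). The 10 between these sets were negative (-0.66 to -0.24), so replicate 1 of one set deviated like replicate 2 of the other. The replicate block gave 4 calls on average (STU2 added) and changed no other count but that at 4 h of estradiol against untreated cells. Over all genes it called 224 higher and 194 lower on average. It is 1 term on the replicate number, and cannot take up a deviation whose sign differs between the sets. These counts therefore do not show how much that deviation mattered. Of the average effects, 3 changed sign when 1 library was left out: TUB1 ran from -0.18 to 0.30, TUB3 from -0.30 to 0.020 and SPC25 from -0.20 to 0.32. The median of the 37 on average ran from 0.23 to 0.38. Library totals moved the median of all genes to 0.32 at 1 h, where that of the 37 was 0.61. Depth was lowest at 1 and 2 h of ethanol, at 3469868 to 5698712 counts. The cause of these changes was not tested.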
